A study of Mus musculus with 13 samples.

Results

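Choroid plexus genes were followed through RNA sequencing of mouse hippocampus, as 10 genes chosen by name (Ttr, Folr1, Kl, Clic6, Kcnj13, Slc4a5, Kcne2, Mfrp, Steap1 and Tmem72) among 25025 genes listed in each of 2 tables of normalized counts. The genes were chosen with their levels in these libraries already known, so the levels and genotype differences of these 10 genes are given as a description. No p is given for single genes of the 10, and nothing is read from how many of them were called. The hippocampus is the cortical structure that serves learning and memory, and each library came from the dissected hippocampus of 1 mouse. Wild types were C57BL/6 mice, and mutants were homozygous (GT/GT) for a gene-trap insertion in Tmem184b on the same C57BL/6 background, with littermates used as wild types where possible. There were 4 wild types and 3 mutants at 5 months of age, and 3 of each at 15 months. Neither genotype received a treatment. The insertion is present in every tissue of the mutants, so these mice do not separate an effect in hippocampal neurons from an effect elsewhere. The study's methods give all 15-month wild types as female and the other groups as mixed, and the sex of single libraries was not used here.

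The choroid plexus is a fringe of vascular tissue that hangs into the brain ventricles. It consists of a sheet of epithelium, joined by tight junctions, around a core of leaky capillaries and stroma, and it secretes cerebrospinal fluid by moving sodium, chloride and bicarbonate into the ventricle, with water following. The epithelium also carries folate, thyroid hormone and vitamin A between blood and cerebrospinal fluid. The choroid plexus of the lateral ventricle is attached along the fimbria of the hippocampus, so it is a neighbour of the dissected tissue and not one of its layers. Several of the 10 genes are among the genes most used to recognise this epithelium, and Kl is also known from neurons.

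The mutant libraries carried the mutation in their RNA. At 5 months the level of Tmem184b was 2329 to 2475 normalized counts over 4 wild types and 31.3 to 44.95 over 3 mutants. At 15 months these ranges were 2346 to 2413 and 29.4 to 57.8. A normalized count is the estimated number of reads of a gene after each library was scaled to the others of its table, and the 2 ages were scaled separately, so levels are compared within an age only. Sums of normalized counts lay between 28086279 and 32383546 per library, which is what scaling leaves and not the sequencing depth. The 11 markers of hippocampal neurons, against which the labelled tissue was checked, summed to between 25265 and 36384 normalized counts in the 13 libraries, and none of these markers was at 0 in any library.

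All 10 genes passed the filter for testing, a mean of at least 10 normalized counts over the libraries of an age, at both ages. At 15 months Slc4a5, Kcne2, Steap1 and Tmem72 passed only through 1 library, mutant replicate 3. The same 4 of 13 libraries had the highest levels of their age for every one of the 10 genes. At 5 months, wild type replicates 1, 3 and 4 stood above every other library for 10 of 10 genes, and wild type replicate 4 was the highest for 10 of 10. At 15 months, mutant replicate 3 was the highest for 10 of 10. Among all genes tested, wild type replicate 4 was the highest library for 10.7% at 5 months and mutant replicate 3 for 25.6% at 15 months.

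**Figure D1:**
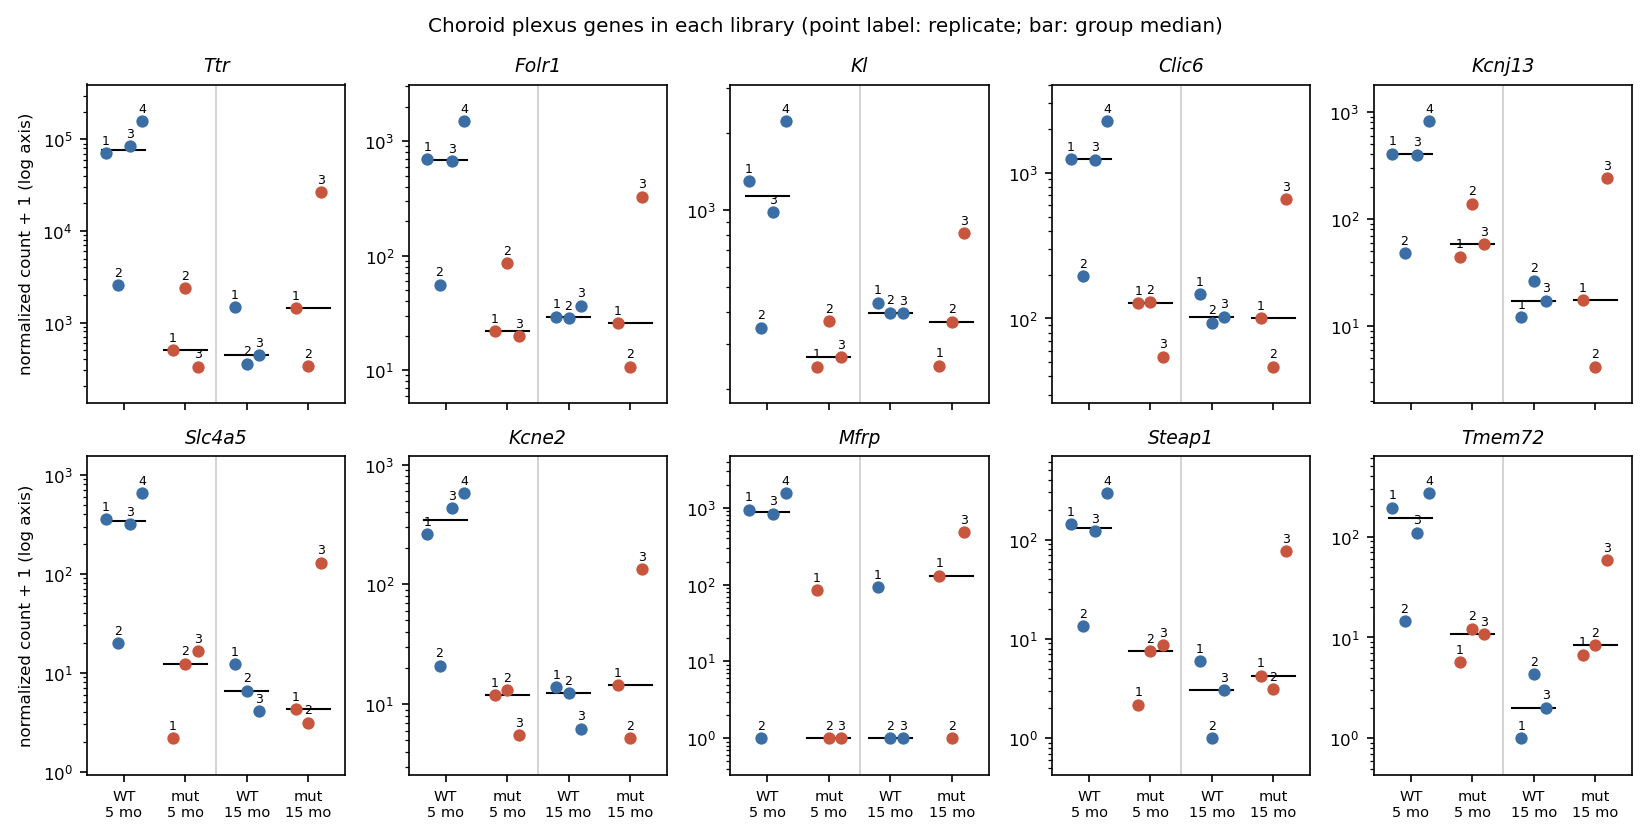
Normalized count + 1 (log axis, a separate scale in each panel) of each of the 10 choroid plexus genes in each of 13 libraries, by genotype and age, with wild types (WT) in blue, mutants (mut) in red, the replicate number beside each point and the group median as a bar. Wild type replicates 1, 3 and 4 at 5 months and mutant replicate 3 at 15 months lie above the other libraries of their age in every panel; the 2 ages were normalized separately.

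The carriers and the hormone co-receptor came first. Ttr encodes transthyretin, which carries thyroid hormone and, with retinol-binding protein, vitamin A, and which the choroid plexus secretes into cerebrospinal fluid. At 5 months it was at 70638, 2570.2, 84222 and 157866 normalized counts in wild type replicates 1 to 4 and at 500.2, 2389 and 329 in mutant replicates 1 to 3. Wild type replicate 2 lay just above mutant replicate 2, so the genotypes did not overlap, but 3 wild types lay more than an order of magnitude above both. The means were 78824 ± 63662 (SD, n = 4) and 1073 ± 1143 (SD, n = 3), with a log2 difference, mutant minus wild type, of -5.75 (SE 1.17, limma on log2(normalized count + 1)). In wild type replicate 4 Ttr was the gene with rank 2 of the whole library and held 0.55% of it, whereas in mutant replicate 3 it had rank 9408.

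At 15 months Ttr was at 1473, 356 and 439.9 normalized counts in wild types and at 1441, 332 and 26552 in mutants. The mutants held both the lowest and the highest library, and wild type replicate 1 and mutant replicate 1 were alike. The log2 difference was 1.93 (SE 1.26), and it fell to 0.17 when mutant replicate 3 was left out.

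Folr1 encodes folate receptor alpha, through which the epithelium takes up folate for delivery to cerebrospinal fluid. At 5 months Folr1 was at 694, 54.9, 669.8 and 1488 normalized counts in wild types and at 21.0, 85.5 and 18.9 in mutants. The genotypes overlapped, since wild type replicate 2 lay below mutant replicate 2. The log2 difference was -3.72 (SE 0.92). At 15 months it was at 28.3, 27.3 and 35.7 in wild types and at 24.8, 9.76 and 326 in mutants, so that 1 mutant lay above and the others below all wild types. That difference was 0.52 (SE 0.99), and -0.91 without mutant replicate 3.

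Kl encodes klotho, the co-receptor that gives fibroblast growth factor receptors their affinity for the hormone FGF23. Kl had the narrowest range of the 10 genes. At 5 months it was at 1295, 345, 983 and 2226 normalized counts in wild types and at 243, 366 and 264 in mutants, a log2 difference of -1.79 (SE 0.47) with overlapping groups. The older mice had it at 433, 396 and 395 in wild types and at 245, 365 and 811 in mutants, a difference of 0.03 (SE 0.34). The highest library exceeded the lowest 9.17-fold at 5 months and 3.31-fold at 15 months, against 480-fold and 80.0-fold for Ttr.

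Of the genes for ion transport, Slc4a5 encodes a sodium bicarbonate cotransporter of the ventricular face of the epithelium. At 5 months Slc4a5 was at 357, 19.0, 318 and 655 normalized counts in wild types and at 1.17, 11.3 and 15.4 in mutants. The genotypes did not overlap, although wild type replicate 2 was much closer to the mutants than to the other wild types, and the log2 difference was -4.70 (SE 1.05). Its range over the 7 libraries, 558-fold, was the widest among the 9 genes that were above 0 in every 5-month library. That range rests on the 1.17 normalized counts of mutant replicate 1, near the bottom of the scale. In the 15-month libraries Slc4a5 was at 11.2, 5.57 and 3.05 in wild types and at 3.30, 2.13 and 129 in mutants, a difference of 0.81 (SE 1.25) with the groups overlapping.

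Kcnj13 encodes the inward rectifier potassium channel Kir7.1, which recycles potassium at the same face. At 5 months Kcnj13 was at 406, 47.0, 397 and 814 normalized counts in wild types and at 43.5, 138 and 57.0 in mutants. Here wild type replicate 2 lay inside the range of the mutants, and the log2 difference of -1.99 (SE 0.77) was among the 2 smallest of the 10 genes, with that of Kl. At 15 months it was at 11.1, 25.6 and 16.3 in wild types and at 16.5, 3.19 and 240.2 in mutants, with a difference of 0.55 (SE 1.17) that became -1.05 without mutant replicate 3.

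Kcne2 encodes an auxiliary subunit of potassium channels, among them KCNQ1. At 5 months Kcne2 was at 262, 19.9, 430.0 and 579 normalized counts in wild types and at 10.9, 12 and 4.49 in mutants, without overlap and with a log2 difference of -4.35 (SE 0.92). It was 1 of 2 genes in which wild type replicate 3 exceeded replicate 1, together with Ttr. At 15 months Kcne2 was at 12.8, 11.3 and 5.22 in wild types and at 13.4, 4.19 and 133 in mutants, a difference of 1.08 (SE 1.00).

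Clic6 encodes a member of the chloride intracellular channel family. At 5 months Clic6 was at 1238, 193, 1228 and 2254 normalized counts in wild types and at 127, 128 and 53.7 in mutants. Every wild type lay above every mutant, and the log2 difference was -3.23 (SE 0.66). The older mice had it at 146, 92.4 and 102 in wild types and at 99.7, 45.8 and 654 in mutants, a difference of 0.38 (SE 0.75), or -0.71 without mutant replicate 3. Clic6 and Kcne2 are neighbours on chromosome 16, with 187606 bases between them, and Clic6 overlaps the gene 2410124H12Rik on the same strand.

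The last group holds membrane proteins whose part in the epithelium is less clear. Mfrp encodes a membrane-type frizzled-related protein best known from the retinal pigment epithelium. At 5 months Mfrp was at 949, 0, 839 and 1564 normalized counts in wild types and at 84.4, 0 and 0 in mutants, and at 15 months at 91.5, 0 and 0 in wild types and at 130.3, 0 and 481 in mutants. Mfrp was thus listed at 0 in 3 of 7 and 3 of 6 libraries, and the 3 low libraries that were above 0 held between 84.4 and 130.3 normalized counts.

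Mfrp lies on the same strand as C1qtnf5 and overlaps it, so reads of shared exons can be assigned to either gene and the values of Mfrp are uncertain. C1qtnf5, also expressed in the retinal pigment epithelium, was at 1074, 672, 817 and 1686 normalized counts in wild types and at 605, 720.3 and 525 in mutants at 5 months. The sum of both genes was 2023, 672, 1656 and 3249.8 in the wild type group against 689.9, 720.3 and 525 in the mutant group. In the sum, wild type replicate 2 lay inside the range of the mutants and the other wild types lay above it. At 15 months the sum was 623, 511 and 468 in the wild type group against 760.2, 704 and 1205 in the mutant group. Every mutant lay above every wild type in that sum, where this held for 16.4% of all genes tested. C1qtnf5 alone was separated in the same way, at 531, 511 and 468 in wild types and at 630, 704 and 724 in mutants. For Mfrp the genotypes overlapped at that age.

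Steap1 encodes a member of the STEAP family of membrane metalloreductases. At 5 months Steap1 was at 142, 12.4, 119.8 and 294 normalized counts in wild types and at 1.18, 6.52 and 7.63 in mutants, without overlap and with a log2 difference of -4.12 (SE 0.89). In the 15-month libraries it was at 4.99, 0 and 2.05 in wild types and at 3.27, 2.14 and 75.1 in mutants, and all libraries but mutant replicate 3 were below 5 normalized counts.

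Tmem72 encodes a transmembrane protein. At 5 months Tmem72 was at 193, 13.4, 109 and 271 normalized counts in wild types and at 4.70, 11.3 and 9.86 in mutants, without overlap and with a log2 difference of -3.39 (SE 0.82). At 15 months it was at 0, 3.34 and 1.02 in wild types and at 5.76, 7.44 and 57.5 in mutants. Tmem72 was the only 1 of the 10 genes without overlap at 15 months, with mutants higher, but 5 of the 6 libraries held fewer than 8 normalized counts.

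Set side by side at 5 months, the 10 log2 differences ranged from -5.75 for Ttr to -1.79 for Kl, with a median of -3.92, beside a median of 0.00025 over all 15563 genes tested. The genotypes did not overlap for 6 genes, all with mutants lower and 0 with mutants higher, where this held for 9.23% and 9.30% of all genes tested. The limma adjusted p was under 0.05 for 5 of the 10 genes, all lower, where this held for 2.27% of all genes tested and for 1.15% with mutants lower, and nothing is read from these counts because the genes were chosen with these differences known. With single libraries left out, the median stayed between -4.88 and -3.35. At 15 months the 10 differences ranged from 0.03 for Kl to 3.14 for Mfrp, with a median of 0.94 beside 0.016 over all 15541 genes. The genotypes did not overlap for 1 gene, with mutants higher, where this held for 16.4% of all genes tested, and limma called 0 of 10 at an adjusted p under 0.05, where it called 6.02% of all genes. Without mutant replicate 3 the median turned to -0.58 over the 6 genes that still passed the filter, and to -0.34 over all 10 genes without a filter. In that unfiltered fit the differences of Slc4a5 and Kcne2 also turned, to -0.91 and -0.24, and those of Ttr, Mfrp, Steap1 and Tmem72 stayed above 0. In these bulk samples, fewer choroid plexus cells and less of these transcripts per cell cannot be told apart.

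**Figure D2:**
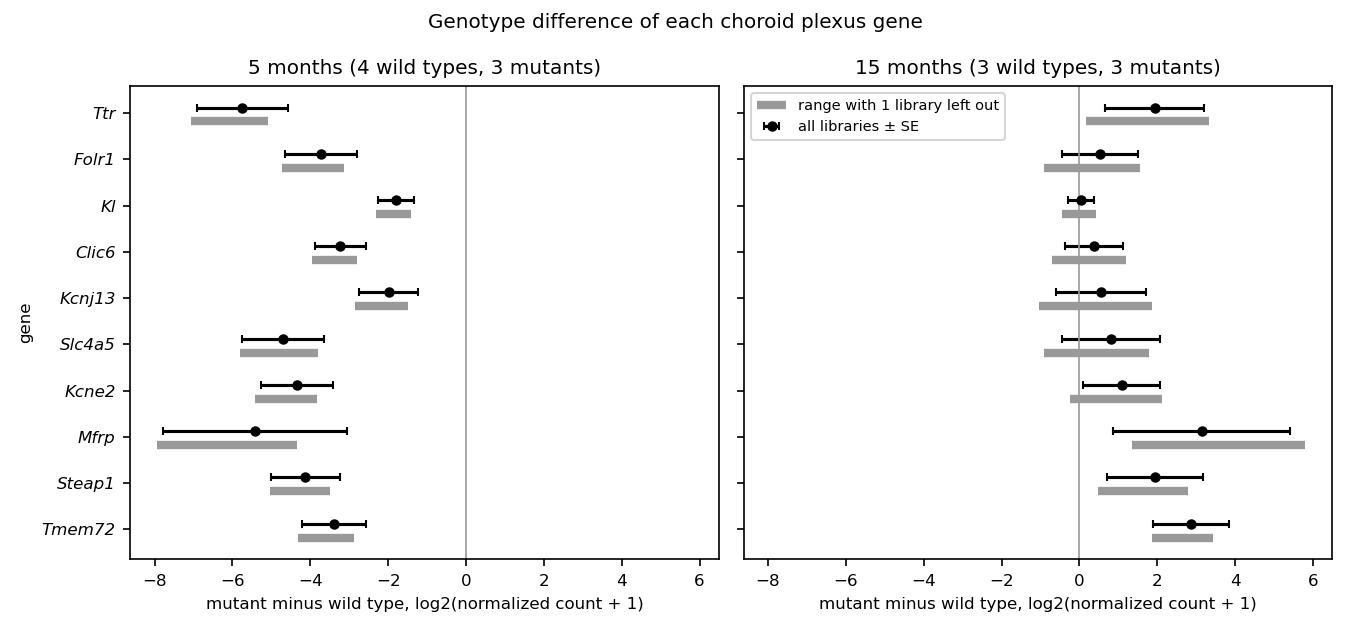
Mutant minus wild type difference of each of the 10 choroid plexus genes on the log2(normalized count + 1) scale at 5 and 15 months, as the estimate with all libraries and its SE (black) and as the range of the estimate with each library left out in turn, without a filter on low values (grey). At 5 months all ranges lie below 0; at 15 months those of Folr1, Kl, Clic6, Kcnj13, Slc4a5 and Kcne2 cross 0, the lowest values being those without mutant replicate 3.

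The 3 high libraries at 5 months differed by factors of 1.35 to 2.48 for all 10 genes where replicate 4 is compared with the others. There wild type replicate 4 exceeded replicate 1 by 1.40-fold to 2.23-fold, with a median over the 10 genes of 1.92-fold, and replicate 3 by 1.35-fold to 2.48-fold, with a median of 2.06-fold. Replicates 1 and 3 were close to each other, with replicate 1 higher for 8 of 10 genes. At 15 months mutant replicate 3 exceeded the median of the other 5 libraries by 2.06-fold for Kl and by up to 60.4-fold for Ttr, with a median of 14.7-fold over the 9 genes whose median was above 0.

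The genes did not keep the same proportions in low and high libraries. Ttr amounted to 12.8, 3.64, 16.5 and 15.6 times the summed level of the other 9 genes in wild type replicates 1 to 4 at 5 months and to 0.933, 3.15 and 0.763 times in the mutants. At 15 months the ratio was 1.99, 0.634 and 0.786 in the wild type group against 2.66, 0.755 and 9.13 in the mutant group. The 4 libraries with high levels had the 4 highest ratios, and Ttr was below the sum of the other genes in 5 libraries. As a share of the whole library, the 10 genes together held 0.271%, 0.0116%, 0.314% and 0.585% of the wild type libraries at 5 months, against 0.00323%, 0.0108% and 0.00251% of the mutant libraries. At 15 months they held 0.00731%, 0.00308% and 0.00335% of the wild type libraries, against 0.00633%, 0.00248% and 0.0910% of the mutant libraries. The share in mutant replicate 3 at 15 months lay between that of wild type replicate 2 and those of the other 3 wild types at 5 months, read across tables that were normalized separately.

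**Figure D3:**
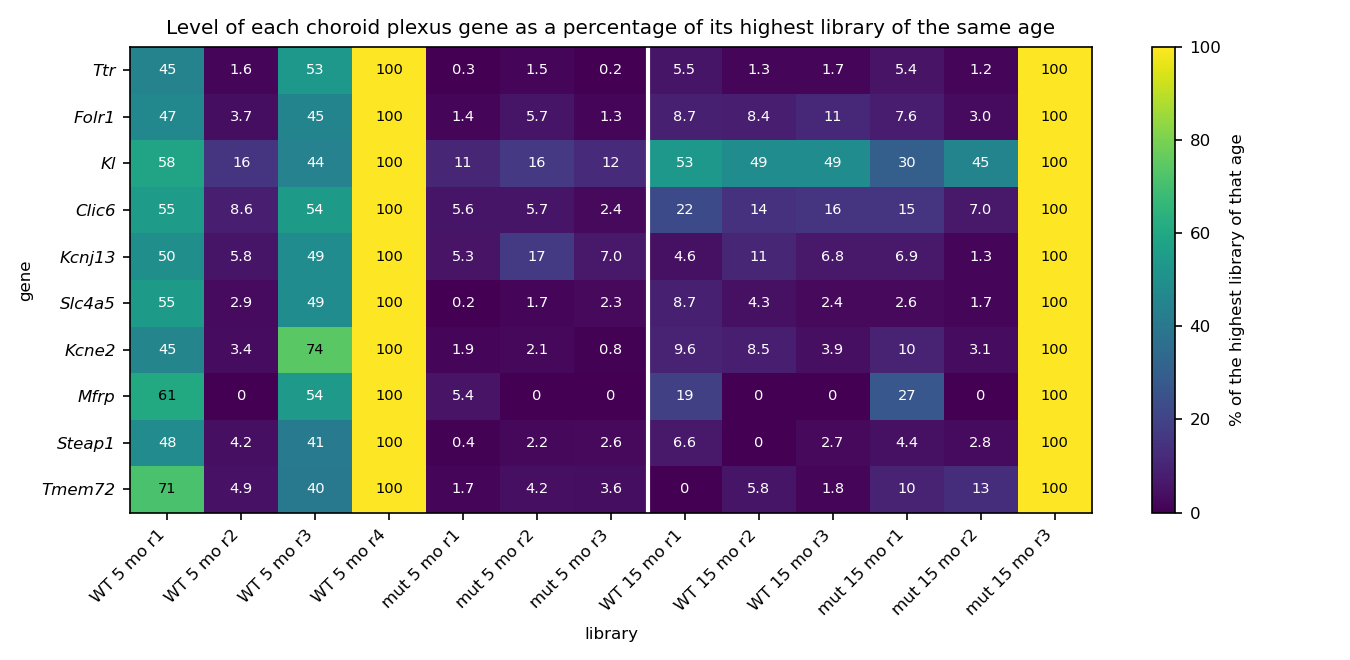
Level of each of the 10 choroid plexus genes (rows) in each library (columns) as a percentage of its highest library of the same age, with the white line between the ages. Wild type replicates 1 and 3 at 5 months reach 40 to 74% of replicate 4 and all remaining 5-month libraries at most 17%; at 15 months Kl stays at 30 to 53% of mutant replicate 3 in the other libraries and the other genes at 27% or less.

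Levels of different genes can be compared only per length. Per kilobase of the longest coding transcript, Ttr had rank 1 of the 10 genes in 13 of 13 libraries, with 133108 normalized counts per kilobase in wild type replicate 4 and 277 in mutant replicate 3 at 5 months. Kl had a median rank of 2 with a range of 2 to 7, and it took the higher ranks where the other genes were low. Folr1, Clic6 and Kcnj13 each had a median rank of 4 and overlapping ranges, so their order is not fixed by these libraries. Slc4a5 and Tmem72 each had a median rank of 9, the lowest. For Tmem72 the annotated length of 17152 bases is far above that of the other genes, and its level per kilobase depends on that transcript model.

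Over the 7 libraries at 5 months, Pearson's r between the log2 levels of 2 of the 10 genes had a median of 0.95 over 45 pairs and ranged from 0.70 to 1.00. Over the 6 libraries at 15 months it had a median of 0.82 and ranged from 0.33 to 0.98. The libraries of an age share a normalization and fall into separate high and low sets, so these coefficients mostly describe the distance between the sets and carry no test. With values centred within each genotype the median was 0.91 at 5 months and 0.84 at 15 months. Among the low libraries alone the genes were less alike, since without mutant replicate 3 the 15-month median was 0.23 over the 6 genes still above the filter. Set against the mean of the other 9 genes, Kcne2 had an r of 0.99 at 5 months and 0.98 at 15 months. Ttr had 0.98 and 0.99, and 0.96 at 15 months without mutant replicate 3. Kl had 0.98 and 0.72, and turned to -0.41 without that library, as Tmem72 did from 0.63 to -0.53. The low values of Tmem72 at 15 months, near the bottom of the scale, leave little to correlate.

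Positions are those of GRCm38, as annotated by GENCODE. Folr1 is at chr7:101858331-101870788, Kl at chr5:150952607-150993817 and Steap1, on the same chromosome, at chr5:5736317-5749326. Kcnj13 is at chr1:87386363-87394729, inside the gene Gigyf2, which is read from the opposite strand, and Folr1 overlaps Anapc15, also on the opposite strand. Slc4a5 is at chr6:83219828-83304945 and Tmem72 at chr6:116679063-116716913. Kcne2 is at chr16:92292389-92298129, Clic6 at chr16:92485736-92541243 and Mfrp at chr9:44101729-44109187. Whether strand was used in assigning reads is not given in the sources used here, so reads of Folr1 and Kcnj13 may include some from their partners.

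Because the 10 genes vary together, their promoters were searched for the 6-letter core TAATCC, bound by OTX2 and related homeodomain proteins, and the 7-letter core TGTTTAC, bound by forkhead proteins, on both strands. OTX2 is a transcription factor that the choroid plexus epithelium needs. RefSeq promoters of GRCm38.p6, each running from 250 bases before to 50 bases after a gene start, were at hand for 7 of the 10 genes, as 8 promoters. TAATCC was in 1 of these 8 promoters, that of Mfrp, where 7.06% of 32851 promoters hold it, and TGTTTAC in 0 of 8, where 3.65% do. For 37 promoters of other choroid plexus genes the numbers were 4 and 1. The promoter of Mfrp (chr9:44101520-44101819, plus strand) is shown for the match, with the reverse complement GGATTA in capitals at base 117. Those of Kcne2 (chr16:92292139-92292438, plus strand) and Slc4a5 (chr6:83237125-83237424, plus strand), both without a match, belong to genes with large differences at 5 months; the start used for Slc4a5 lies inside the gene as annotated by GENCODE.
Mfrp: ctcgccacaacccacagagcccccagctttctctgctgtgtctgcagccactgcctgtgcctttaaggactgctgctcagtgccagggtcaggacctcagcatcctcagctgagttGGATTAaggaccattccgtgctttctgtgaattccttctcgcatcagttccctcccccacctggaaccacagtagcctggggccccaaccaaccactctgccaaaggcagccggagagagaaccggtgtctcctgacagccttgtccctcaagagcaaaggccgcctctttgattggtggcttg
Kcne2: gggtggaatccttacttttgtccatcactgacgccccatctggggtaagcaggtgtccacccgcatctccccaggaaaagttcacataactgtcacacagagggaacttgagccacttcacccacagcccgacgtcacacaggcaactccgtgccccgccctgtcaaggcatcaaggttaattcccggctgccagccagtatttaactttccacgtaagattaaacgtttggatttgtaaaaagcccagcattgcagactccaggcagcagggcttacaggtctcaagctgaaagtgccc
Slc4a5: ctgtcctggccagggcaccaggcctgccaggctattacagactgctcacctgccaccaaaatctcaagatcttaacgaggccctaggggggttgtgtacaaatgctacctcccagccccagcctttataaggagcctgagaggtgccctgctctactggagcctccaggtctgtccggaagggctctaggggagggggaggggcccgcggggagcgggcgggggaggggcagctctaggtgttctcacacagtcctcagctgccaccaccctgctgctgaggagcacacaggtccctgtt

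Genes of the same epithelium that were not among the 10 were then read from the fit over all genes. These were 32 genes chosen as markers with earlier results of these data known, so their counts and p-values are a description. All 32 passed the filter at 5 months and 30 had an estimate below 0. Their median log2 difference was -1.93, with a range of -3.77 to 0.01. At a limma adjusted p under 0.05, 3 were lower in mutants and 0 higher, where 1.15% of all genes were lower. At an unadjusted p under 0.05 there were 24 of 32, where 20.5% of all genes passed. Wild type replicate 4 was the highest library for 29 of the 32 genes, where it was for 10.7% of all genes. The genotypes did not overlap for 7, all with mutants lower, where this held for 9.23% of all genes. Without wild type replicate 2, the wild type with low levels of the 10 genes, 24 of the 32 had an adjusted p under 0.05 (limma). Over all genes 107 of 15580 tested did in that fit. With mutant replicate 3 or wild type replicate 1, 3 or 4 left out the limma fit called 0. Over all genes those fits called only 15, 88, 7 and 53, in that order, against 354 with all libraries.

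The 3 genes that fell were Calml4, a calmodulin-like protein, Prlr, the prolactin receptor, which the choroid plexus expresses at high levels, and Prr32. Calml4 was at 237, 66.8, 234 and 398 normalized counts in wild types and at 25.7, 51.9 and 12.2 in mutants, a log2 difference of -2.90 (SE 0.57, limma adjusted p = 0.0354). Prlr was at 525, 71.4, 184 and 479 in wild types and at 22.4, 47.7 and 51.5 in mutants, a difference of -2.62 (SE 0.59, limma adjusted p = 0.0478). Every wild type was above every mutant for both genes, with wild type replicate 2 nearest to the mutants. Prr32 was at 104, 21.4, 98.0 and 224 in wild types and at 4.74, 13.9 and 2.18 in mutants, a difference of -3.71 (SE 0.72, limma adjusted p = 0.0343).

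The 4 most abundant of these genes over both ages, Enpp2, Igfbp2, Spint2 and Car12, had an adjusted p above 0.05 at 5 months (limma). Enpp2, which encodes autotaxin, a secreted enzyme that makes lysophosphatidic acid, was at 14127, 3167, 14608 and 27159 normalized counts in wild types and at 1651, 3726 and 2463 in mutants (limma adjusted p = 0.0612). Wild type replicate 2 lay between mutants. Igfbp2, an insulin-like growth factor binding protein, and Car12, a carbonic anhydrase, had log2 differences of -0.31 (SE 0.28, limma adjusted p = 0.583) and -0.85 (SE 0.23, limma adjusted p = 0.0798).

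At 15 months 30 of the 32 genes passed the filter and 4 had an estimate below 0, with a median of 0.53. At an unadjusted p under 0.05 there was 1 of 30, where 28.8% of all genes passed at 15 months. Mutant replicate 3 was the highest library for 28 of these 30 genes, where it was for 25.6% of all genes. Spint2, a membrane-bound inhibitor of serine proteases, was the 1 gene called, at 912, 1071 and 1032 normalized counts in wild types and at 1467, 1219.6 and 1583 in mutants, a log2 difference of 0.50 (SE 0.11, limma adjusted p = 0.0403), where 1.99% of all genes were called higher. All mutants were above all wild types for Spint2, as for Tmem72 but not for the other 9 of the 10 genes. The genotype difference at 15 months minus that at 5 months had an adjusted p under 0.05 for 0 of 30 genes (limma), where it did for 1.75% of all genes, and an unadjusted p under 0.05 for 24 of 30, where 21.1% of all genes passed.

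**Figure D4:**
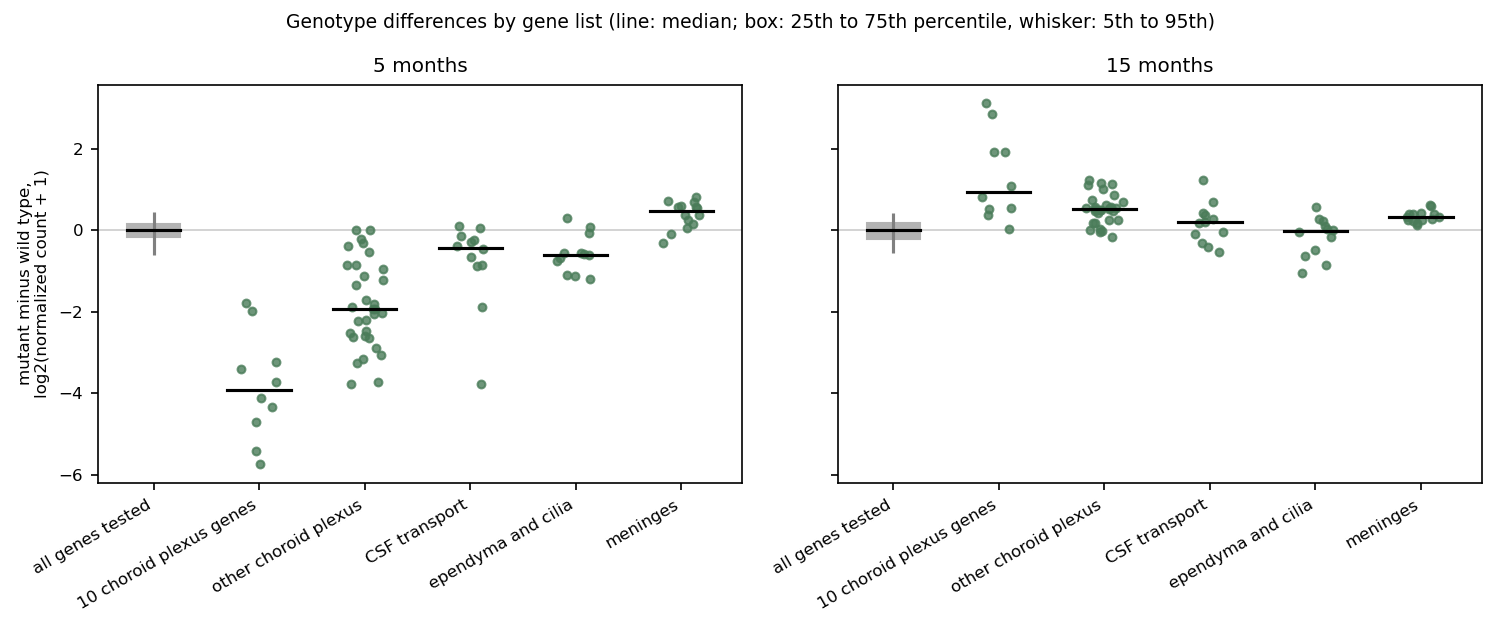
Mutant minus wild type difference (log2(normalized count + 1)) of single genes by list at 5 and 15 months, with the median as a line, beside the 5th, 25th, 75th and 95th percentile of all genes tested. At 5 months the medians are -3.92 for the 10 choroid plexus genes and -1.93 for the other choroid plexus genes; at 15 months they are 0.94 and 0.53.

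The genes whose levels were most like those of the 10 were ranked among 15330 other genes with a mean of at least 10 at both ages, by the lower of the 2 Pearson coefficients, over 7 and over 6 libraries, with the mean log2 level of the 10. The first were Rdh5 at 0.97, Ace, Krt18 and Wfdc2 at 0.96, Abca4, Trpv4, Cldn2, Col9a3 and Epn3 at 0.95 and Wdr86 at 0.94. Of these, 7 were on the list of 32 choroid plexus genes, and Wfdc2, Col9a3 and Epn3 were not. Among the first 50 genes 18 were on that list, of 30 ranked, and the median of the lower coefficient was 0.87 for the list and -0.39 for all genes ranked. Without mutant replicate 3, the 15-month coefficients of the first 10 genes ran from only 0.46 (Col9a3) to 0.92 (Krt18). These genes were ranked on the same libraries, so their levels are a description without a test. Col9a3, a chain of type IX collagen, was at 1381, 538, 1565 and 2282 normalized counts in wild types and at 332, 379.9 and 398 in mutants, and wild type replicate 2 was above all mutants. Cldn2, the tight junction protein of leaky epithelia, was at 353, 19.0, 233 and 530.4 in wild types and at 14.1, 43.2 and 9.86 in mutants, with wild type replicate 2 inside the range of the mutants.

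Genes for related functions, many of them used by other brain cells, were read from the same fit. The 12 genes for ion and water transport into cerebrospinal fluid share Aqp1, Car12 and Trpv4 with the choroid plexus list. Limma called 0 of 12 at 5 months, with 8 at an unadjusted p under 0.05, where 20.5% of all genes passed. At that age 10 of 12 estimates were below 0. The 5-month sums were 82111 to 92568 normalized counts in wild types against 68052 to 77555 in mutants. At 15 months 2 of the 12 were lower in mutants (limma adjusted p under 0.05), where 4.03% of all genes were lower. These were Slc12a2, the sodium potassium chloride cotransporter of the epithelium, with a log2 difference of -0.52 (SE 0.084, limma adjusted p = 0.0285), and Slc4a10, a sodium bicarbonate transporter, with -0.41 (SE 0.082, limma adjusted p = 0.0341). Both are also expressed in neurons, and neither was higher in mutant replicate 3, where the 10 genes were highest, than in wild types.

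Of 12 genes that handle folate, thyroid hormone and retinol, 0 were called by limma at either age. At an unadjusted p under 0.05 there were 2 among 12 tested at 5 months, where 20.5% of all genes passed. There were 5 among 11 of these genes at 15 months, where 28.8% of all genes passed. Thra, the thyroid hormone receptor gene, was the most abundant of the 12 and had a limma adjusted p of 0.972 at 5 months and 0.0873 at 15 months. Of the 6 genes for partners of klotho, 4 passed the filter and 0 were called by limma at either age. At each age 1 of the 4 had an unadjusted p under 0.05, where 20.5% and 28.8% of all genes passed. Fgfr1, the receptor that klotho binds best, was at 3879 to 4250 normalized counts in the wild type group against 3391 to 4321 in the mutant group at 5 months. Fgf23, the hormone itself, was at 6.82 to 20.2 in the wild type group against 23.4 to 52.6 in the mutant group at 5 months (limma adjusted p = 0.173).

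Markers of other cell types were read beside the 10 genes. The 12 genes of ependyma, the ciliated lining of the ventricle, summed to 1471, 1626, 2515 and 2417 normalized counts in the wild type group against 1349, 1976 and 956 in the mutant group at 5 months, and no gene was at 0. Limma called 0 of 12 at each age, with 5 and 1 at an unadjusted p under 0.05, where 20.5% and 28.8% of all genes passed. The median log2 difference was -0.60 at 5 months and -0.019 at 15 months. Foxj1, the regulator of motile cilia, was at 543, 514, 901 and 981 in wild types and at 509, 644 and 329 in mutants at 5 months. Wild type replicate 1, high in the 10 genes, had the lowest sum of the wild types.

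The 14 genes of meninges and stromal fibroblasts, cells that also form the stroma of the choroid plexus, followed another order at 5 months. They summed to 57971, 49071, 56409 and 48654 normalized counts in the wild type group against 47152, 113471 and 44686 in the mutant group, with the peak in mutant replicate 2, where the 10 genes together reached 3147. At 15 months they summed to 11761, 20118 and 37919 in the wild type group against 21850, 12913 and 67199 in the mutant group, with the peak in mutant replicate 3 as for the 10 genes. Ptgds, the prostaglandin D2 synthase of meninges, held most of the sums. None of the 14 was at 0 in any library, and limma called 0 of 14 at each age. At an unadjusted p under 0.05 there were 7 at 5 months, where 20.5% of all genes passed. There were 0 at 15 months, where 28.8% of all genes passed.

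The 5 genes of red blood cells summed to 19517 to 32642 normalized counts in the wild type group against 29069 to 41451 in the mutant group at 5 months, and at 15 months to 19628 to 28382 in wild types and to 12782, 17512 and 189306 in mutants, with mutant replicate 3 again apart. Limma called 0 of 5 at each age. At an unadjusted p under 0.05 there were 5 at 5 months, where 20.5% of all genes passed. There were 0 at 15 months, where 28.8% of all genes passed. Of the 6 mural cell genes, the contractile genes Acta2 and Myh11 and the matrix protein gene Vtn were higher in mutants at 5 months, where 1.12% of all genes were, with log2 differences of 0.67 (SE 0.12), 0.80 (SE 0.11) and 0.62 (SE 0.092) and limma adjusted p of 0.0313, 0.0190 and 0.0215. Their summed level was 7262 to 8272 in the wild type group against 10043 to 12579 in the mutant group. Limma called 0 of 6 at 15 months, with 0 at an unadjusted p under 0.05.

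The 11 endothelial genes summed to 11791 to 13001 normalized counts in the wild type group against 13343 to 14281 in the mutant group at 5 months. At that age 4 of 11 estimates were below 0, with a median log2 difference of 0.21. Against that median, Plvap was called lower in mutants at 5 months, where 1.15% of all genes were. It was at 414, 336, 423 and 551 normalized counts in wild types and at 268, 261 and 208 in mutants, a log2 difference of -0.79 (SE 0.17, limma adjusted p = 0.0404). Plvap encodes a protein of the diaphragms of fenestrated capillaries, such as those of the choroid plexus, and it is not made by vessels with a barrier. At 15 months Plvap was at 369, 420.1 and 349 in wild types and at 501, 453 and 319.6 in mutants, and mutant replicate 3, the highest for the 10 genes, was the lowest for Plvap. At an unadjusted p under 0.05 there were 6 of the 11 endothelial genes at 5 months and 1 at 15 months, where 20.5% and 28.8% of all genes passed. Cldn5, of the tight junctions of barrier vessels, was higher in mutants at 15 months, with a difference of 0.37 (SE 0.077, limma adjusted p = 0.0354), where 1.99% of all genes were called higher.

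Brain regions next to the hippocampus were counted in the same way. Of 8 genes of thalamus and habenula, 5 of striatum and 4 of neocortex, limma called 0 at each age. Over all genes it called 2.27% at 5 months and 6.02% at 15 months. At an unadjusted p under 0.05 there were 1, 0 and 0 at 5 months, where 20.5% of all genes passed. There were 1, 0 and 0 at 15 months, where 28.8% of all genes passed. At 5 months thalamus and habenula genes summed to 1385.7 to 1733 normalized counts in wild types against 1217 to 1384.8 in mutants. At 15 months these sums were 1533 to 1657 against 1213 to 1514, so every mutant lay below every wild type at both ages. Their single estimates went both ways, with 3 of 8 below 0 at 5 months and 4 of 7 at 15 months. The 11 genes of hippocampal neurons summed to 25265 to 27590 normalized counts in the wild type group against 30118 to 34936 in the mutant group at 5 months, and to 28751 to 30269 against 30299 to 36384 at 15 months, without overlap at either age. At 5 months 11 of 11 estimates were above 0, but at 15 months 6 of 11 were below 0, with a median log2 difference of -0.11. At each age 5 genes had an unadjusted p under 0.05, where 20.5% of all genes did at 5 months and 28.8% at 15 months. Pou3f1 was higher in mutants at 5 months (0.44, SE 0.095, limma adjusted p = 0.0428), where 1.12% of all genes were called higher. Dsp (-0.41, SE 0.10, limma adjusted p = 0.0497) and Zbtb20 (-1.27, SE 0.24, limma adjusted p = 0.0320) were lower at 15 months, where 4.03% were called lower. The part of blood, meninges, vessels and neighbouring regions in the levels of the 10 genes was not tested.

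**Figure D5:**
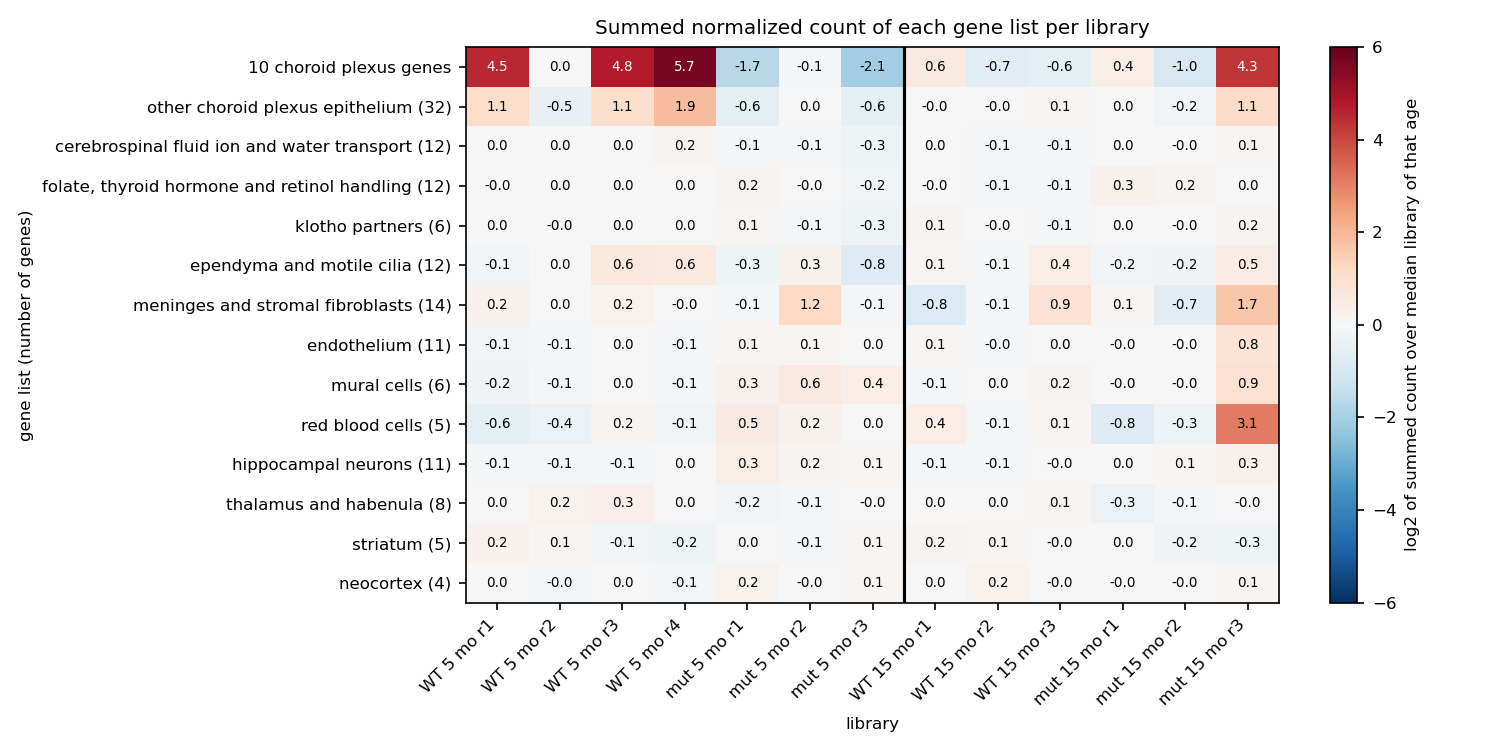
Summed normalized count of each gene list (rows, with the number of genes) in each library (columns), as log2 of the ratio to the median library of the same age, with the black line between the ages. Only the lists of choroid plexus genes are high in wild type replicates 1, 3 and 4 at 5 months together; in mutant replicate 3 at 15 months those lists, meninges, mural cells, endothelium and red blood cells are all high, the last at 189306 normalized counts, and ependyma and hippocampal neurons are at 1.37 and 1.20 times the median library, their highest of that age.

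The fits over all genes were repeated with the level of the 10 genes as a covariate. Their mean log2 level was 9.60, 5.51, 9.51 and 10.5 in the wild type group against 4.86, 5.41 and 4.54 in the mutant group at 5 months, so that genotype accounted for 62.3% of its variance over the 7 libraries, and for 16.8% over the 6 libraries at 15 months. With this mean as a covariate in the limma fit, the number of genes with an adjusted p under 0.05 went from 354 to 3 at 5 months, from 935 to 1255 at 15 months and from 268 to 1 for the difference between ages. None of the 32 other choroid plexus genes was called at 5 months in that fit. These genes vary with the covariate, with a median of 0.87 for the lower coefficient over 30 ranked. The 0 therefore cannot be read as a result about them. The number at 5 months also fell without the covariate when 1 library was left out, to 7 without wild type replicate 3, 15 without mutant replicate 3 and 53 without wild type replicate 4. Because the covariate and genotype overlap at 5 months, the effects of the 2 cannot be told apart there for genes that follow both.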

How the data were processed

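RNA sequencing of total RNA from 13 hippocampi was analysed from 2 deposited tables of normalized counts, a signal that the authors made with Salmon 0.11.1 (mm10) and DESeq2, separately for each age. Aligner settings and the use of strand are not given in the sources used here. The best step for a library made 39.1% to 70.8% of its low values whole (within 0.02), too few to recover reads, so no count test was run; the study's methods give 1 read target for all samples, the depth reached in each library is unknown, and no interval or floor is given. All 13 columns were matched to mice by sample description, and 0 were left unused. Replicates are separate mice.

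Within an age, mutants were compared with wild types by limma 3.58.1 (R 4.3.3; lmFit, then eBayes with trended prior variance, two-sided), using log2(normalized count + 1) of genes averaging at least 10 and Benjamini-Hochberg adjusted p under 0.05 over all genes tested. Fold changes on this scale understate those of low genes. The difference between ages was fitted over all 13 libraries, each table entering through its own genotype difference. The script was tested on simulated data. The 10 genes and the 13 gene lists (134 genes, 1 matched through a synonym) were chosen with earlier results of these data known. The 10 genes therefore get estimates and SE without a p for single genes. How many of the 10 were called is given only beside the share of all genes, as a description. The p-values of list genes come from the fit over all genes and are a description. Genes named are the 10, Tmem184b, the 10 genes most like them, and of each list the 4 most abundant genes and any called; C1qtnf5, Aqp1, Otx2 as a protein, Gigyf2, Anapc15 and 2410124H12Rik were named for their overlap or role. Of the genes for ion and water transport, some of the most abundant are not reported here. Positions and lengths are from GENCODE (GRCm38) and promoters from RefSeq. Alternatives were a pseudocount of 0.1 or 10, a minimum mean of 100 or none, trimmed mean rescaling, a block for the replicate number, loess correction for GC content and length (span 0.3), block and correction together, each library left out (also without a filter, added after seeing the data), the mean level of the 10 genes as a covariate, Ttr left out, and for correlations Spearman's rho, centring within genotype and linear values. Tables were handled in Python 3.11.15 with pandas 2.3.3 and numpy 2.4.6, and plots drawn with matplotlib 3.10.9.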

Additional observations from a re-analysis of the deposited data

Results flagged for a closer look

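The genotype difference changed between ages for 2 genes of the hippocampal neuron list, both tested by limma as the difference of differences over 13 libraries. Over all genes, 1.75% had an adjusted p under 0.05 in that fit (limma). Zbtb20, a transcription factor of hippocampal projection neurons, was at 138, 49.3, 52.6 and 87.5 normalized counts in wild types and at 125, 196 and 252 in mutants at 5 months. At 15 months Zbtb20 was at 272, 224 and 331 in wild types and at 113, 155 and 81.4 in mutants. The difference at 15 months minus that at 5 months was -2.55 on the log2 scale (SE 0.49, limma adjusted p = 0.0271). Dsp, which encodes desmoplakin and marks granule cells of the dentate gyrus, changed by -0.92 (SE 0.22, limma adjusted p = 0.0485).

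Among the wild types at 5 months, 1 library lay apart from the other 3 for 5 of the 82 genes examined, where chance gives about 4.1. Divided by the whole range of the 4, the distance of that library from its neighbour was 0.832 for Car2, 0.838 for Slc12a2, 0.886 for Cldn5, 0.909 for Pdgfrb and 0.905 for Fibcd1. The outlying library was replicate 1 for Car2 and Fibcd1 (lowest), replicate 3 for Cldn5 (highest) and replicate 4 for Slc12a2 (highest) and Pdgfrb (lowest). None of the 10 choroid plexus genes was among these, but the measure could not single out their low wild type, replicate 2. It uses linear counts, and replicate 4 lay so far above replicates 1 and 3 that the range was wide. For Ttr, replicate 2 was at 1.63% of replicate 4.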

How the results depend on the processing

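The median difference of the 10 genes moved most with the library left out. At 5 months the median difference kept its direction throughout, between -4.88 and -3.35 with 1 library left out. At 15 months it lay between -0.58, without mutant replicate 3, and 1.99, and the same library turned the sign for Clic6 (range -0.71 to 1.19), Folr1 (-0.91 to 1.56), Kcnj13 (-1.05 to 1.87) and Kl (-0.45 to 0.42). In a fit without a filter, added after seeing the data, it also turned Slc4a5 (-0.91) and Kcne2 (-0.24), and the median was -0.34. A pseudocount of 10 lowered the difference of Tmem72 at 15 months from 2.86 to 1.22. The median correlation at 15 months was 0.60 as Spearman's rho and 0.99 on linear values, and lay between 0.23 and 0.90 with 1 library left out; at 5 months it lay between 0.93 and 0.97.

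Counts of called genes moved more. With correction for GC content and length they were 878 at 5 months, 37 at 15 months and 148 for the difference between ages, and 9 and 0 for the other choroid plexus genes at the 2 ages. With the level of the 10 genes as a covariate they were 3 at 5 months and 1 for the difference between ages. For the other choroid plexus genes, which vary with that covariate, the count was 0 at 5 months. Without a filter 578 genes were called at 15 months. With 1 library left out the counts lay between 7 (wild type replicate 3) and 901 (mutant replicate 2) at 5 months, between 1 (wild type replicate 3) and 1526 (mutant replicate 2) at 15 months and between 34 and 2111 for the difference between ages. At both ages each of the 13 libraries, left out, moved the count of its age by more than 1.5 times. For the other choroid plexus genes they lay between 0 and 24 (wild type replicate 2) at 5 months and 0 and 2 at 15 months, and Spint2 was no longer called with any 1 wild type or mutant replicate 1 left out at 15 months. The cause of these changes was not tested.

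The replicate numbers did not pair the mice, as deviations of mice with the same number had correlations of 0.058, -0.0080 and -0.091 at 5 months and 0.013, 0.074 and 0.16 at 15 months. With the number as a block 9, 1595 and 3 genes were called, and 0 other choroid plexus genes at 5 months. With block and GC correction the counts were 157, 12 and 11, and 1 and 0 for the other choroid plexus genes at the 2 ages. The median differences of the 10 genes with the block were -3.35 and 0.94. The tables hold no read totals per library, so no counting error is given for low values such as those of Steap1 and Tmem72 at 15 months.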
